A study of Mus musculus with 4 samples.

Results

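The histone genes of E14 mouse embryonic stem cells were examined on 4 Affymetrix MoGene 1.0 ST arrays, 2 from cells with Kdm2b knocked down and 2 from control cells. The members were genes whose symbol follows the older histone naming scheme (Hist1h to Hist4h, H1f, H2af, H2bf, H3f and H4f), measured by a probe set assigned to that gene alone. Only 11 genes met this rule under the symbols of the platform annotation, because most core histone genes have since been renamed (H2ac, H2bc, H3c, H4c). The rule was therefore also applied to the older symbols that RefSeq lists for each gene, which gave 94 genes. Of these, 45 had a probe set of their own among the 19938 genes tested, 39 were covered only by probe sets assigned to several genes, and 10 were on no annotated probe set. The name replication-dependent fits 27 of the 45. Another 8 were replacement variants, 8 were genes known from germ cells and 2 were annotated as pseudogenes.

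E14 is an embryonic stem cell line from a mouse strain labelled inbred 129. Both groups were kept in 15% serum with leukemia inhibitory factor (1000 units/ml), received lentiviral vectors at an MOI of 10, and were selected with puromycin (2 µg/ml) from 48 h. The sources used here do not give the sequence against Kdm2b or the content of the control vector. The labels do not say whether the replicates of a group came from separate cultures, so each p-value covers only the spread among these arrays, and that spread may be technical.

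Replication-dependent histone genes supply the bulk of the nucleosome core proteins H2A, H2B, H3 and H4 and the linker H1 while DNA is copied. They lack introns, lie in clusters, and make mRNAs that end in a stem-loop in place of a poly(A) tail. Replacement variants are single genes with polyadenylated mRNAs, are made outside S phase as well, and exchange into chromatin with dedicated chaperones. The labelling kit named in the labels primes with random sequences, so it does not require a poly(A) tail. Kdm2b demethylates histones, binds unmethylated CpG through a zinc finger, and belongs to a variant Polycomb complex that ubiquitylates H2A.

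Values are log2 expression as deposited, and log2 fold changes are knockdown minus control. Genes were called at an adjusted p under 0.05 (limma, Benjamini-Hochberg over all 19938 genes). Kdm2b read 9.20 and 9.19 on the knockdown arrays, against 10.74 and 10.64 on the control arrays, which is 1.495 lower (log2 fold change -1.495, SE 0.066, limma's adjusted p = 0.0039). Of all genes 12.2% were called, 5.00% higher and 7.19% lower. Dropping any array left 0 calls by limma in the whole table, while 3495 to 4215 genes had an unadjusted p below 0.05. It also called 0 of 35557 when every probe set was tested together (7742 at an unadjusted p under 0.05). Every call below depends on all 4 arrays and on testing named genes only. When an array was left out, the log2 fold changes of the called histone genes were -0.62 to -0.57 for Macroh2a1, -0.525 to -0.405 for H1f10 and -0.40 to -0.30 for Macroh2a2. The arrays of these genes did not overlap between the groups, so leaving out an array could not turn the sign. The stem cell markers Pou5f1 (13.59 and 13.66 in knockdown, 13.57 and 13.52 in control) and Nanog (13.62 and 13.67 in knockdown, 13.51 and 13.50 in control) were not called.

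Among the 45 histone genes, 0 were higher and 3 lower after knockdown, and 42 were neither. The background share of lower genes was 7.19%, which is close to the 3 of 45 found here. All 3 were replacement variants: Macroh2a1, Macroh2a2 and H1f10. None of the 27 replication-dependent genes was called (3 at an unadjusted p under 0.05, where 29.8% of all genes were). The median log2 fold change was -0.035 over the 45 genes, -0.01 over the replication-dependent genes, -0.17 over the replacement variants and 0.05 over the germ cell genes, beside 0.03 over all genes. When an array was left out the median of the replication-dependent genes ran from -0.115 (second knockdown array out) to 0.07 (second control array out) and that of the replacement variants from -0.19 to -0.16. In RNA from a whole culture, fewer cells of a type and less RNA per cell cannot be told apart.

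**Figure D1:**
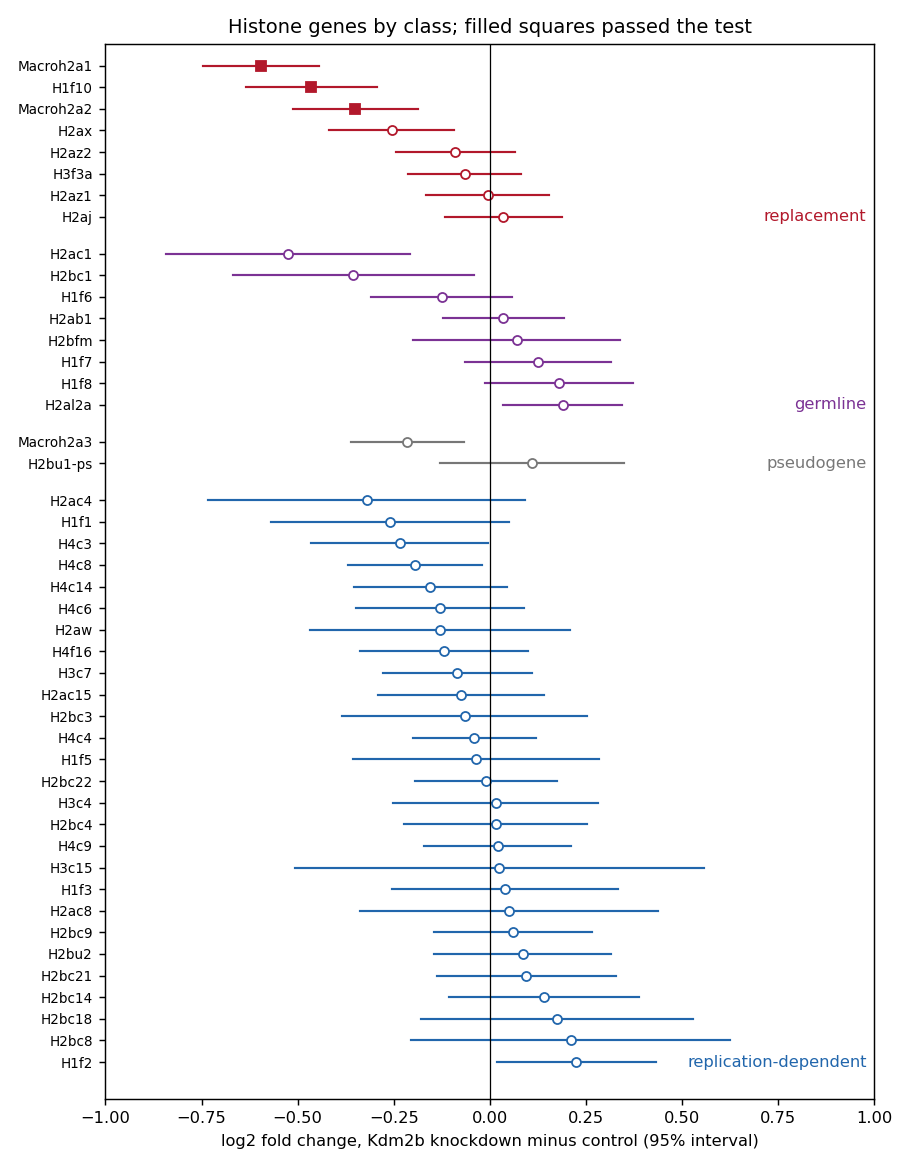
Log2 fold change (knockdown minus control, x axis) of the 45 histone genes, grouped by class down the y axis. Bars are 95% intervals from limma's moderated standard error, filled squares passed the test and open circles did not. The 3 filled squares are the replacement variants Macroh2a1, H1f10 and Macroh2a2, and the replication-dependent genes lie between -0.32 and 0.225.

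Both macroH2A genes were among the called replacement variants. MacroH2A is an H2A variant with a large globular macrodomain, known from the inactive X chromosome and other repressed chromatin and as a barrier to reprogramming. Macroh2a1 read 11.51 and 11.49 on the knockdown arrays, against 12.12 and 12.07 on the control arrays. The arrays did not overlap, and the group means were 11.50 ± 0.014 in knockdown and 12.095 ± 0.035 in control cells (SD, n = 2 each). Its log2 fold change was -0.595 (SE 0.061, 95% interval -0.75 to -0.44, adjusted p = 0.0074, limma), a level 1.51-fold lower.

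Macroh2a2, the second macroH2A gene, read 11.71 and 11.81 in knockdown cells, against 12.11 on both control arrays. It fell by 0.35 on the log2 scale (SE 0.066, 95% interval -0.51 to -0.19, adjusted p = 0.0273, limma). The smaller change of Macroh2a2 was not tested against that of Macroh2a1. A further annotated locus of the family, the pseudogene Macroh2a3, read 8.23 and 8.24 in knockdown and 8.46 and 8.44 in control cells, with a log2 difference of -0.215 (limma, adjusted p = 0.0724). It passed after quantile normalization (adjusted p = 0.0459) and after median centring of the arrays (0.0498). Its mean was below 8.52, the threshold used for dim genes. The other pseudogene, H2bu1-ps, had a log2 fold change of 0.11 (adjusted p = 0.494, limma).

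H1f10 encodes H1.10 (H1x), a linker histone that is made outside S phase. It read 11.45 and 11.42 in knockdown cells, against 11.96 and 11.84 in control cells, with no overlap. The log2 fold change was -0.465 (SE 0.069, 95% interval -0.64 to -0.29, adjusted p = 0.0155, limma). H2ax encodes the H2A variant that is phosphorylated at DNA breaks, and its mRNA exists with a stem-loop and with a poly(A) tail. It read 12.30 and 12.31 in knockdown cells, against 12.51 and 12.61 in control cells. Its arrays did not overlap, but its log2 fold change of -0.255 (SE 0.066) had an adjusted p of 0.0612 in limma. It passed after median centring (0.036), with dim genes removed (0.0426) and with an intensity trend (0.0326), but not after quantile normalization (0.0691). H2ax also lies on probe sets assigned to 20 and 19 histone genes together, which had log2 fold changes of -0.02 and 0.

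The remaining replacement variants differed less. H2az1 and H2az2 encode H2A.Z, which flanks active and poised promoters. H2az1 read 13.67 and 13.74 in knockdown cells, against 13.68 and 13.74 in control cells, a log2 fold change of -0.005 (95% interval -0.16 to 0.15). Its second probe set gave -0.01. H2az2 had a log2 fold change of -0.09 (95% interval -0.24 to 0.065) and H2aj, a mammalian H2A variant, one of 0.035 (95% interval -0.12 to 0.19). H3f3a encodes H3.3, which is placed outside replication by the chaperones Hira and Daxx. Its own probe set read 8.75 and 8.73 in knockdown cells, against 8.80 and 8.81 in control cells (log2 fold change -0.065, adjusted p = 0.511, limma). H3f3a also lies on 4 probe sets assigned to several genes, so its level is uncertain. H3f3b and H1f0 had no probe set of their own and are not analysed here. Of the 8 replacement variants 6 had arrays that did not overlap, all lower in knockdown, beside 25.0% of all genes.

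**Figure D2:**
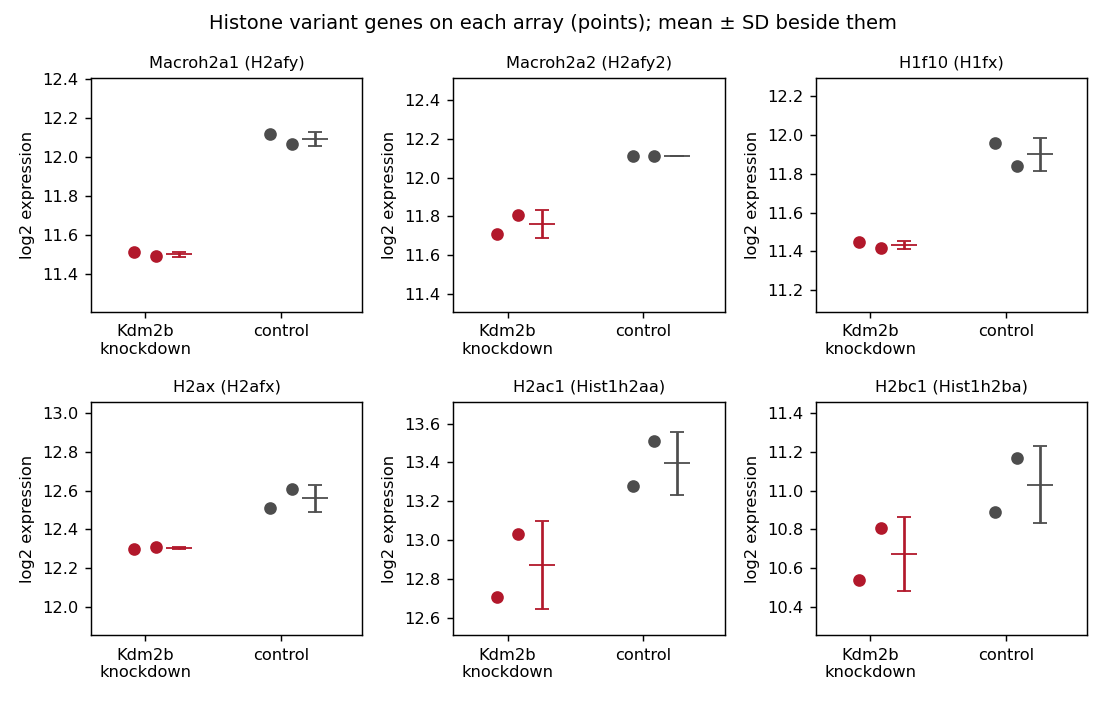
Log2 expression (y axis, a span of equal width in every panel) of 6 histone variant genes on the knockdown arrays (left) and control arrays (right). Points are single arrays and the bars beside them are means ± SD (n = 2). In each panel both knockdown arrays lie below both control arrays, and the older symbol stands in brackets.

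The start regions of the 3 called genes are shown because Kdm2b binds CpG-rich DNA. They are the 250 bases before an annotated start of each gene, 5′ to 3′ on the gene's strand, with CpG dinucleotides in capitals (RefSeq, GRCm38.p6). The Macroh2a2 window lies inside that gene, which is annotated to position 61784604. The Macroh2a1 window overlaps its gene, which is annotated to position 56135626. Starts further upstream were not examined. Macroh2a1 lies at chr13:56135551-56135800, minus strand, Macroh2a2 at chr10:61783865-61784114, minus strand, and H1f10 at chr6:87981483-87981732, minus strand.
Macroh2a1: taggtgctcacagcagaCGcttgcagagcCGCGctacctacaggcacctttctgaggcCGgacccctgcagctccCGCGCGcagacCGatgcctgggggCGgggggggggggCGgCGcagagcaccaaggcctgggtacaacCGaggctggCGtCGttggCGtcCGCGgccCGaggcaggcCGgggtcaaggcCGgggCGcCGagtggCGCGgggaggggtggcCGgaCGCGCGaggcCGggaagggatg
Macroh2a2: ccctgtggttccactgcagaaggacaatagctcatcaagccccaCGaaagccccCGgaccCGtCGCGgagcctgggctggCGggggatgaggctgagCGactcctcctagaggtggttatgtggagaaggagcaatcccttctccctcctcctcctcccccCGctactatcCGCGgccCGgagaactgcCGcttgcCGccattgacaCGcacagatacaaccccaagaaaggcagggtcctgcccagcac
H1f10: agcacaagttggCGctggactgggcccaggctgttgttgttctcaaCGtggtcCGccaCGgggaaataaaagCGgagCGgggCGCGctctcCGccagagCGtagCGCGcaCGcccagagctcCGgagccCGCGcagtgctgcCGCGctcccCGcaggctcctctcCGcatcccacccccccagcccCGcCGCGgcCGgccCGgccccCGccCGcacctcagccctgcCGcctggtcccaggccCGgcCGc

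These windows held 29, 14 and 30 CpG. The motifs TATAAA and CCAAT (both strands) were found in none of the 3. Promoter windows were matched for 38 of the 45 genes, of which 7 were replacement variants, 23 replication-dependent and 8 germ cell genes. The CpG count had a median of 28 (range 9 to 35) in replacement variants, 9 (2 to 20) in replication-dependent genes and 4 (0 to 10) in germ cell genes, against 5 over 27025 RefSeq promoters. Among the replacement variants not called, H3f3a, with 35 CpG, and H2az1, with 28, had log2 fold changes of -0.065 and -0.005. H2az2, with 19, and H2aj, with 9, had -0.09 and 0.035. The level of H3f3a is uncertain, as given above. Whether the CpG count goes with the change was not tested. Binding of Kdm2b was not measured here.

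**Figure D3:**
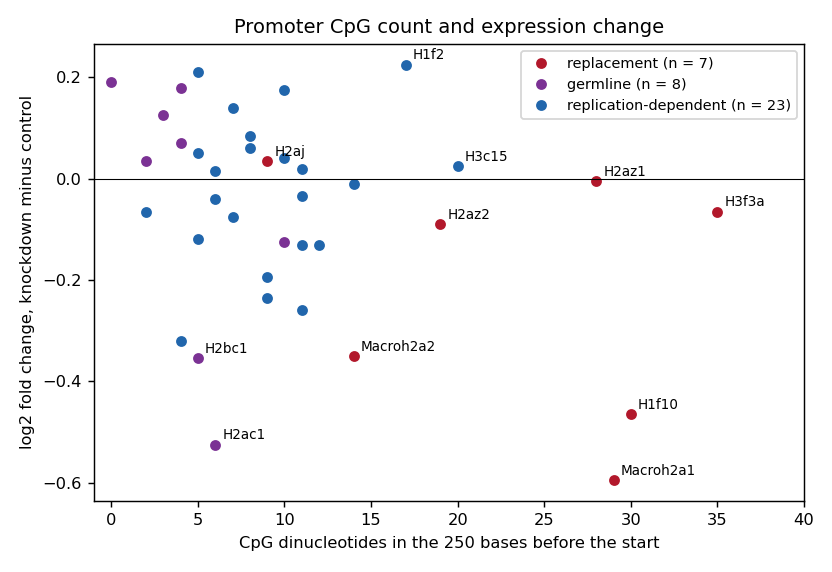
CpG dinucleotides in the 250 bases before an annotated start of each gene (x axis) and log2 fold change, knockdown minus control (y axis). The 38 histone genes are coloured by class, and the Macroh2a2 window lies inside its gene. The called variants Macroh2a1, H1f10 and Macroh2a2 lie at 29, 30 and 14 CpG, and H2az1 and H3f3a lie at 28 and 35 CpG near 0 change.

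The germ cell histone genes did not pass the test. H2ac1 and H2bc1 encode TH2A and TH2B, the H2A and H2B of testis and oocytes. H2ac1 read 12.71 and 13.03 in knockdown cells, against 13.28 and 13.51 in control cells. Its arrays did not overlap, and its log2 fold change was -0.525 (SE 0.13, 95% interval -0.84 to -0.21, adjusted p = 0.0533, limma). It passed after quantile normalization (adjusted p = 0.0398), after median centring (0.0323), with dim genes removed (0.0438) and with an intensity trend (0.0364). H2bc1 read 10.54 and 10.81 in knockdown cells, against 10.89 and 11.17 in control cells. The log2 fold change of H2bc1 was -0.355 (SE 0.13, adjusted p = 0.131, limma), again with no overlap. Dropping the second control array gave -0.215 and dropping the first knockdown array gave -0.22. H2bc1 also lies on 4 probe sets shared with other H2B genes, and whether probes of this pair read related genes was not tested.

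These neighbouring genes are transcribed away from each other, with 280 bases between their starts. The 250 bases before the start of H2ac1 (chr13:23934187-23934436, plus strand) are shown for that reason, beside the 179 bases between H2ac8 and H2bc8 (chr13:23571221-23571399, plus strand), the other divergent pair in which both genes had a probe set of their own. Capitals mark the TATAAA motif, the CCAAT motif and the octamer core ATTTGCA on either strand (RefSeq, GRCm38.p6).
H2ac1: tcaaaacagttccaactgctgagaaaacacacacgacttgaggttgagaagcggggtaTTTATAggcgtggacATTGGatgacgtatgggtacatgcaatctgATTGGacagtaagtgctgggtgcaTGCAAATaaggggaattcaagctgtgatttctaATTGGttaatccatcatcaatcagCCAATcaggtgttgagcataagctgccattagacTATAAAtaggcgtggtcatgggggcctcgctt
H2bc8: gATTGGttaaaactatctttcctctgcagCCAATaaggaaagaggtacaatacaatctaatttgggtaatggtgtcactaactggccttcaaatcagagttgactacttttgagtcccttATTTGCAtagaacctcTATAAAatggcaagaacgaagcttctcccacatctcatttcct

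The stretch before H2ac1 held 2 TATAAA, 4 CCAAT and 1 octamer core, and that between H2ac8 and H2bc8 held 1, 2 and 1. H2ac8 and H2bc8, a replication-dependent pair, had log2 fold changes of 0.05 and 0.21. H2ac8 was dim (mean 6.9) and read 6.72 and 7.13 in knockdown and 6.73 and 7.02 in control cells. H2bc8 read 8.60 and 8.93 in knockdown and 8.34 and 8.77 in control cells. The arrays of H2ac8 and H2bc8 overlapped between the groups. When an array was left out, H2ac8 ran from -0.155 to 0.255 and H2bc8 from -0.005 to 0.425, so neither has a settled sign. In the 23 replication-dependent windows, TATAAA occurred in 13, CCAAT in 18 and the octamer core in 7, shares of 56.5%, 78.3% and 30.4% against 12.9%, 34.2% and 3.52% of all RefSeq promoters. The H1 box AAACACA occurred in 3 of the 4 replication-dependent H1 windows and in 6.34% of all promoters.

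The other germ cell genes lay between -0.125 and 0.19. H1f6 (the testis linker H1t) had a log2 fold change of -0.125, H1f7 (a linker of spermatids) one of 0.125 and H1f8 (the oocyte linker) one of 0.18. H1f8 read 7.81 and 7.66 in knockdown cells, against 7.51 and 7.60 in control cells, with no overlap (adjusted p = 0.19, limma). H2al2a, an H2A of spermatids, read 9.13 and 9.07 in knockdown cells, against 8.93 and 8.89 in control cells (log2 fold change 0.19, adjusted p = 0.108, limma). H2ab1 and H2bfm had log2 fold changes of 0.035 and 0.07. H1f6, H1f8, H2ab1 and H2bfm were dim, with means under 8.52.

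The linker genes of the replication-dependent class went in both directions. H1f2 (H1.2) read 9.82 and 9.97 in knockdown cells, against 9.60 and 9.74 in control cells. At 0.225 it had the highest log2 fold change of the 45 genes (95% interval 0.018 to 0.43, adjusted p = 0.142, limma), and it was the only replication-dependent gene whose knockdown arrays both lay above both control arrays, beside 33.8% of all genes. H1f1 (H1.1) read 12.55 and 12.70 in knockdown cells, against 13.06 and 12.71 in control cells, a log2 fold change of -0.26 with no overlap (95% interval -0.57 to 0.049) that was -0.085 without control replicate 1. H1f5 and H1f3 had log2 fold changes of -0.035 and 0.04, and H1f3 was dim (mean 7.055). H1f4 shares its probe set with an H2B gene and is not analysed here on its own.

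The core histone families of the replication-dependent class also held no called gene. The 9 H2B genes ran from -0.065 to 0.21, with 7 of 9 above 0 and a median of 0.085, beside 11344 of 19938 genes above 0. H2bc14 read 13.41 and 13.51 in knockdown cells, against 13.19 and 13.45 in control cells (log2 fold change 0.14, 95% interval -0.11 to 0.39). H2bc18 read 10.15 and 10.52 in knockdown cells, against 10.03 and 10.29 in control cells (0.175, 95% interval -0.18 to 0.53). The arrays of all 9 H2B genes overlapped between the groups. Among all genes, 33.8% had knockdown arrays above both control arrays and 25.0% below both. Of the 4 H2A genes 3 were below 0. The lowest, H2ac4, read 9.82 and 10.23 in knockdown cells, against 10.17 and 10.52 in control cells, a log2 fold change of -0.32 with a wide interval (-0.73 to 0.092). Leaving out the first or second knockdown array gave -0.115 or -0.525, and leaving out the first or second control array gave -0.495 or -0.145.

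The 7 H4 genes ran from -0.235 (H4c3) to 0.02 (H4c9), with 6 of 7 below 0 and a median of -0.13, beside 8309 of 19938 genes below 0. When an array was left out the H4 median lay between -0.235 and -0.025. H4c3 read 10.99 and 11.24 in knockdown cells, against 11.36 and 11.34 in control cells (log2 fold change -0.235, 95% interval -0.47 to -0.0039, adjusted p = 0.162, limma). Dropping the first knockdown array gave -0.11 and dropping the second gave -0.36. H4c8 read 7.75 and 7.88 in knockdown cells, against 8.03 and 7.99 in control cells (-0.195, adjusted p = 0.135, limma). It was dim (mean 7.91). H4c14, from the smaller cluster on chromosome 3, read 13.23 and 13.42 in knockdown cells, against 13.48 on both control arrays (-0.155, adjusted p = 0.261, limma). These 3 of 7 genes had knockdown arrays below both control arrays, beside 25.0% of all genes, and the other H4 genes overlapped. H4c4 read 14.27 and 14.35 in knockdown cells, against 14.33 and 14.37 in control cells, close to the highest value of the table (14.74). The 3 H3 genes ran from -0.085 (H3c7) to 0.025 (H3c15), all with a mean under 8.52. H3c15 had the widest interval of the 45 genes (-0.51 to 0.56) and read 7.28 and 7.78 in knockdown and 7.25 and 7.76 in control cells.

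By cluster, the median log2 fold change was -0.022 over the 20 genes of the Hist1 cluster, 0.06 over 4 genes of Hist2, -0.022 over 2 genes of Hist3 and -0.12 for H4f16, the gene of the former Hist4 locus. For all 27 replication-dependent genes the 95% interval lay within -1 and 1 on the log2 scale, the bounds of a 2-fold change. The same held for 19555 of the 19938 genes tested. Over the 27 genes the intervals reached from -0.73 to 0.62. The median width of the interval to either side was 0.23. These intervals are not adjusted for the number of genes, and a call needed more than an interval that excludes 0. The intervals of H4c3 (-0.235), H4c8 (-0.195) and H1f2 (0.225) excluded 0, but their adjusted p were 0.162, 0.135 and 0.142 (limma). The smallest difference that could be called with 2 arrays a group was not determined.

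Most core histone genes are so alike that the array reads them together. Of the probe sets assigned to several genes, 26 held only histone genes, between 2 and 20 genes each. Their log2 fold changes lay between -0.075 and 0.03. In the test of every probe set, which called 0 of all 35557, 0 of the 26 had an unadjusted p under 0.05 (limma), where 21.8% of all probe sets had. The 10 probe sets for H3 genes lay between -0.04 and 0.015, the 6 for H4 genes between -0.075 and 0.01, and the 7 for H2B genes between 0.005 and 0.03. These probe sets share genes and are not separate measurements, since only 24 of the 26 differed in their values. Of their 104 values 81 were above 14, and the highest value of the table was 14.74. What this does to a difference was not tested.

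By their medians, the replication-dependent genes differed more between the replicates of a group than between the groups. The second knockdown array read higher than the first for 27 of 27 genes, by a median of 0.21, and the second control array read higher than the first for 22 of 27, by a median of 0.14. Over all genes the second array was the higher in 46.6% (knockdown) and 44.3% (control). Relative to each gene's mean, the median of the 27 genes was -0.10 and 0.068 on the knockdown arrays and -0.092 and 0.078 on the control arrays, so the groups overlapped. For the replacement variants the medians were -0.099 and -0.083 on the knockdown arrays and 0.076 and 0.105 on the control arrays, and their replicates differed by a median of 0.025 in knockdown and 0.005 in control cells. The replicate spread of the replication-dependent genes moves with the array, and its cause was not tested.

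**Figure D4:**
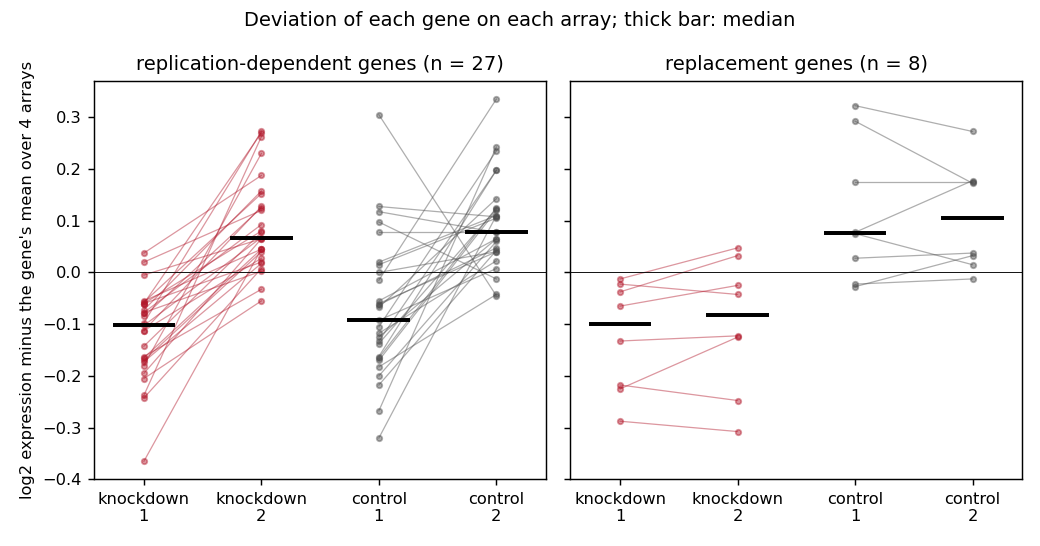
Log2 expression of each gene minus its mean over the 4 arrays (y axis) on each array (x axis), for the replication-dependent genes (left panel, n = 27) and the replacement variants (right panel, n = 8). Lines join the arrays of a group and thick bars are medians. On the left the second array of each group is the higher one and the groups overlap, while on the right the knockdown medians (-0.099 and -0.083) lie below the control medians (0.076 and 0.105).

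Factors that make and process histone mRNA were listed beside the genes themselves. Of 23 measured, 0 were higher, 1 lower and 22 neither, with a median log2 fold change of -0.04. Over all genes 5.00% were higher and 7.19% lower, and the counts of this list and the next lie near those shares. Cdk2, the kinase that activates histone transcription at the start of S phase, read 11.45 and 11.53 in knockdown cells, against 11.86 and 11.77 in control cells, and fell by 0.325 (SE 0.069, adjusted p = 0.0365, limma). Npat, the coactivator that Cdk2 phosphorylates, read 11.13 and 11.28 in knockdown cells, against 11.46 on both control arrays (log2 fold change -0.255, adjusted p = 0.0786, limma). Slbp, the stem-loop binding protein, read 11.57 and 11.80 in knockdown cells, against 11.74 and 11.73 in control cells (-0.05, adjusted p = 0.749, limma). Hinfp, an activator of H4 genes, had a log2 fold change of -0.095, and Casp8ap2 (FLASH), which acts in processing of the mRNA end, one of -0.155. Of the 23 factors 16 lay below 0 and 7 above, beside 8309 and 11344 of 19938 genes. The highest was Srrt (0.35, adjusted p = 0.0685, limma).

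Of 22 histone chaperones and deposition factors, 1 was higher, 2 lower and 19 neither (5.00% and 7.19% of all genes), with a median of -0.015. Ubn1, a subunit of the Hira complex that places H3.3, fell by 0.48 (SE 0.08, adjusted p = 0.0198, limma). Chaf1b, a subunit of the CAF-1 complex that places H3 and H4 behind the fork, fell by 0.345 (SE 0.081, adjusted p = 0.0476, limma). Asf1a, a chaperone of H3 and H4, rose by 0.29 (SE 0.063, adjusted p = 0.0385, limma). After median centring Asf1a had an adjusted p of 0.0622, and after quantile normalization Chaf1b had one of 0.0505. Cenpa, the centromeric H3 variant, had a log2 fold change of 0.02, and -0.02 after median centring.

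S phase was followed with 27 measured genes of DNA replication. Fen1, a flap endonuclease of lagging strand synthesis, was higher (0.35, SE 0.066, adjusted p = 0.0277, limma), 0 were lower and 26 neither, and the median was -0.06. Of all genes 5.00% were higher and 7.19% lower. Without passing the test, 18 of the 27 lay below 0, beside 8309 of 19938 genes. Of the 27, 13 had knockdown arrays below both control arrays, beside 25.0% of all genes. Pcna, the sliding clamp, had a log2 fold change of -0.02. With an intensity trend in limma's prior 5 of the S phase genes were lower, and 3 were after median centring or with dim genes removed. The second knockdown array was the higher one for 24 of the 27 genes and the second control array for 10, so the replicate difference of the histone genes was not shared by these genes in control cells.

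Markers of stem cells and of 2 other cell types were read on the same arrays, on which 5.00% of all genes were called higher and 7.19% lower. Of 10 primitive endoderm markers 4 were higher (Gata6, Dab2, Col4a1 and Sox17) and 0 lower, and their summed linear signal was 11513 and 16580 on the knockdown arrays, against 7521 and 6459 on the control arrays. Sox17 was dim (mean 8.19) and had an adjusted p of 0.0582 after quantile normalization (limma). Gata6, a regulator of primitive endoderm, read 11.74 and 12.60 in knockdown cells, against 10.07 and 10.04 in control cells. Of 10 stem cell markers 0 were called (3 at an unadjusted p under 0.05, beside 29.8% of all genes). Klf4 had a log2 fold change of 0.30 (adjusted p = 0.0514, limma) and passed after quantile normalization (0.042). The sum of the stem cell markers was 104845 and 106456 on the knockdown arrays, against 103699 and 102991 on the control arrays. Of 9 fibroblast markers 1 was higher (Twist1) and 1 lower (Acta2), and their sum was 3909 and 3764 on the knockdown arrays, against 3737 and 3797 on the control arrays. Col1a1, a fibroblast collagen, had a log2 fold change of 0.15. The table's lowest value is 3.12, so no marker reads 0, and it gives no call of presence. The part of such cells in the lower Macroh2a1, Macroh2a2 and H1f10 was not tested.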

How the data were processed

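The authors deposited log2 expression values per probe set (35557 probe sets, 2 decimals), which the submitters' processing notes credit to Affymetrix Expression Console. The sources used here give neither its version nor its background step and scaling between arrays, and the log2 scale was inferred from the range of values (3.12 to 14.74). The median was 8.55 and 8.53 on the knockdown arrays and 8.49 and 8.51 on the control arrays. Depth does not apply to arrays, and their number limits the precision.

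Of the probe sets, 21789 had 1 symbol in the platform annotation, 1621 several and 12147 no entry. Per gene the probe set with the highest mean over the 4 arrays was kept. Symbols, older symbols and promoter windows came from RefSeq (GRCm38.p6). The test was limma 3.58.1 under R 4.3.3, knockdown against control (group as the only term, default prior of 3.9 degrees of freedom, two-sided). It was also run on simulated data, with results not reported here. Motifs were searched on both strands in the 250 bases before a start. Alternatives were the replicate block, leaving out each array, quantile normalization, median centring, removal of dim genes (mean of 8.52 or less), other choices of probe sets, other priors and an adjusted p under 0.1. Class medians and counts are descriptions, with no test over a list. Protein features were planned and are not analysed here.

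The members, lists, class rules and alternatives were chosen with earlier results of these data known. The text names Kdm2b, every called member, the highest and lowest member of each family and class, fixed variants (H1f0, H1f8, H2ax, H2az1, H2az2, Macroh2a1, H3f3a, H3f3b and H1f2) and, of each list, its called genes and fixed ones (Slbp, Npat, Hinfp, Casp8ap2, Cenpa, Pcna, Pou5f1, Nanog, Gata6 and Col1a1). The remaining members named, and Klf4 and Srrt of the lists, were chosen after their values were seen.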

Additional observations from a re-analysis of the deposited data

How the results depend on the processing

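Leaving out any array brought every count of calls to 0, for all genes, the histone genes, their classes and families and the 3 lists. These fits have 1 residual degree of freedom, and the lone array of a group is assumed to vary like the other group. With the replicate number as a block (1 residual degree of freedom), limma called 0 genes higher and 0 lower, hence 0 members of any class, family or list, with 5411 genes at an unadjusted p under 0.05. Deviations of same-numbered arrays from their group means correlated at 0.095 over all genes, and the labels name nothing that same-numbered arrays share, so the numbers were not taken to pair the samples. The replication-dependent genes nevertheless mostly read higher on the second array in both groups (27 of 27 in knockdown and 22 of 27 in control cells). Testing every probe set of the table together also gave 0 calls for all genes, the histone genes and each class, family and list. The fewer degrees of freedom and the larger number of features are part of these alternatives' construction.

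The count of lower histone genes was 5 after quantile normalization, with dim genes removed and with an intensity trend, and 6 after median centring of each array or at an adjusted p under 0.1. The 3 genes called in the main test were among them each time, which at the looser threshold was bound to happen. The added calls were H2ac1 under all of these, H2ax except after quantile normalization, and Macroh2a3 after quantile normalization, centring and at the looser threshold. The H2A family had 4, 4, 4, 5 and 5 lower genes in that order of settings, and the germ cell genes 1 under each. At an adjusted p under 0.1, 1920 genes were higher and 2236 lower. The median of all genes was 0.0075 after quantile normalization, -0.01 after centring and -0.005 with dim genes removed. That of the replacement variants was -0.2125 after centring. That of the germ cell genes was 0.0131 after quantile normalization, 0.0125 after centring and -0.115 with dim genes removed, which kept 33 of the 45 members.

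For the lists, centring gave medians of -0.08 (histone mRNA factors), -0.055 (chaperones) and -0.10 (S phase genes). Lower histone mRNA factors numbered 3 after centring and with dim genes removed, 2 with a trend and 5 at an adjusted p under 0.1, and higher ones 1 with a trend and 2 at 0.1. Chaperones had 0 higher genes after centring and 2 at 0.1, and 1 lower gene after quantile normalization and with every probe set of 1 symbol. Lower S phase genes numbered 3 after centring and with dim genes removed, 5 with a trend and 8 at 0.1.

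With each array left out in turn the medians ran from -0.115 to 0.07 (replication-dependent genes), -0.11 to 0.04 (all histone genes), -0.095 to 0.13 (H1), -0.1925 to -0.0475 (H2A), -0.02 to 0.195 (H2B), -0.1125 to 0.0425 (H3), -0.235 to -0.025 (H4), -0.0325 to 0.0825 (germ cell genes), -0.105 to -0.005 (histone mRNA factors), -0.0825 to -0.0125 (chaperones) and -0.1 to -0.045 (S phase genes). Signs turned for genes near 0: Cenpa to -0.02 after centring and -0.04 to 0.08 over the arrays left out, H2aj to -0.005 after centring, H3c15 to -0.0312 after quantile normalization, -0.015 after centring and -0.23 to 0.28 over the arrays left out, and H4c9 to -0.02 after centring and -0.05 to 0.09. H2az1 ran from -0.04 to 0.03, H2bc8 from -0.005 to 0.425, H2bu1-ps from -0.005 to 0.225, Pcna from -0.06 to 0.02 and Slbp from -0.165 to 0.065 when each array was left out. The causes were not tested.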
